A study of Homo sapiens with 12 samples.

Results

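The clustered histone genes encode the linker histone H1 and the core histones H2A, H2B, H3 and H4, and were taken by their older names (HIST1 to HIST4). Of 55782 gene symbols in the count table, 90 carry such a name, and the 60 with at least 10 counts summed over the 12 libraries are described. The other 30 comprised 18 symbols with no count in any library and 12 with 1 to 9 counts in all. Just inside the minimum were HIST2H4A with 22 counts and HIST1H2BE with 24, and just outside it were HIST2H2AA4 with 9 and HIST1H4PS1 with 8.

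The RNA came from wells in which 2 human lines were grown together for 24 h. Jurkat is a T cell leukaemia line, here carrying the inhibitory receptors LAG3 and PD1, and Raji is a Burkitt lymphoma line of B cells, here carrying PDL1, which binds PD1. In every arm the Raji cells had been loaded with staphylococcal enterotoxin D (SED, 100 ng/ml), a superantigen that engages the T cell receptor. The 4 arms were MK3475 (anti-PD1) with MK4280 (anti-LAG3), called the combination, then anti-LAG3 plus isotype antibody, anti-PD1 plus isotype antibody, and isotype antibody alone. Doses were 0.01, 0.1 and 1 µg/ml of each antibody, and the values of an arm are listed from the lowest dose to the highest throughout. Several wells made 1 pellet and 1 library per condition, so the doses of an arm stood in for replicates in tests of arm means. A p-value here rests on the scatter among the 12 libraries alone, and part of that scatter may be technical. Both lines were read together: a change in either line, fewer cells of a line and less RNA per cell cannot be told apart.

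Most clustered histone mRNAs are made in S phase, when newly copied DNA is packed into nucleosomes. They end in a conserved stem-loop in place of a poly(A) tail, the stem-loop binding protein SLBP holds that end, and the mRNA is degraded soon after DNA synthesis stops. A few of the genes also make a longer, polyadenylated mRNA. Selection for poly(A) therefore catches little of the family. The molecule is labelled polyA RNA here while the protocol speaks of total RNA, so it is uncertain which of them was sequenced.

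The stem-loop is shown because it marks the mRNA end that sets the family apart. A stem of 6 base pairs around a loop of 4 bases was found in GENCODE 29 transcripts (GRCh38) of 25 of the 60 genes. These held 5 different cores of 16 bases, 1 of which was shared by 13 genes. Capitals mark stem and loop and lower case the 5 bases on either side, as DNA on the gene's strand, 5′ to 3′. The first 4 are H4 genes, and the rest are H2A and H2B genes.
HIST1H4H: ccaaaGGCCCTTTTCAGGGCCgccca
HIST1H4E: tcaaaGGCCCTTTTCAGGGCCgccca
HIST4H4: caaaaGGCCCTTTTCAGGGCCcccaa
HIST1H4I: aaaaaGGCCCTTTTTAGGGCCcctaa
HIST1H2AC: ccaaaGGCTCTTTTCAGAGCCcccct
HIST1H2AG: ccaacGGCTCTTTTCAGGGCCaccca
HIST1H2BD: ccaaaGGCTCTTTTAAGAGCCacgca
HIST3H2A: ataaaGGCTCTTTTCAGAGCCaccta
In GRCh38 these stretches lie at chr6:26285126-26285151 (minus strand) for HIST1H4H, chr6:26204996-26205021 (plus strand) for HIST1H4E, chr12:14770719-14770744 (minus strand) for HIST4H4, chr6:27139649-27139674 (plus strand) for HIST1H4I, chr6:26124664-26124689 (plus strand) for HIST1H2AC, chr6:27133510-27133535 (plus strand) for HIST1H2AG, chr6:26158582-26158607 (plus strand) for HIST1H2BD and chr1:228457364-228457389 (minus strand) for HIST3H2A. In 19 of the 25 genes an annotated transcript runs more than 100 bases past the stem-loop, by up to 1128 bases in HIST1H2AC and 390 in HIST3H2A. The search found no such stem and loop in the annotated transcripts of the other 35 genes, HIST1H4C among them. Sequence beyond the annotated ends was not searched, and a transcript annotated too short would miss the stem-loop. The lack of a match therefore cannot show that a gene has none.

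The 60 genes were rare. They took 0.00595% to 0.00972% of a library's counts, 1535 to 3217 counts at depths of 23593973 to 36581754. Of the 60, 48 lie on chromosome 6, 11 on chromosome 1 and 1 on chromosome 12, and 5 are annotated as pseudogenes. HIST1H2BK, an H2B gene, had the highest mean level, 8.85 CPM (read counts scaled to a common library size, after TMM normalisation). HIST1H4C, an H4 gene, followed with 7.96 CPM, then HIST3H2A, an H2A gene, with 4.80 CPM. HIST1H4I (H4) averaged 3.67 CPM, HIST1H2AC (H2A) 3.46, HIST1H1C (H1) 3.36 and HIST1H2BD (H2B) 3.33. HIST1H4H and HIST1H4E (both H4) averaged 3.02 and 2.03 CPM, HIST1H2AG (H2A) 2.34, HIST1H2BH (H2B) 2.23 and HIST1H1E (H1) 2.10. Per kilobase of the deposited gene length the order began with HIST1H2BK at 23.2 CPM per kb, HIST1H4C at 18.3, HIST3H2A at 5.37 and HIST1H1C at 5.23. Of the 60, 46 passed the filter on low counts and were tested, and 14 did not.

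Near-identical copies limit some of these levels. The share of 50-base stretches of its transcripts that a gene shares with no other symbol had a median of 98.5% over the 60 genes. It was under 50% in 9, among them HIST1H2BK at 25.9%, HIST2H3D at 19.6%, HIST1H2AJ at 16.3% and HIST1H2AM at 13.7%. Of the 18 symbols with no counts, 5 had no stretch of their own, among them HIST2H3A, HIST2H3C and HIST1H3D. HIST1H3J and HIST1H2AM share exon bases on 1 strand. It is not stated in the labels how reads that match several genes were counted, so the levels of these genes are uncertain.

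The summed level of the family was lowest in the combination and with anti-LAG3 at 1 µg/ml. The combination gave 92.0, 73.4 and 60.0 CPM, anti-LAG3 83.5, 97.7 and 63.4, anti-PD1 73.8, 86.7 and 74.0, and isotype antibody 79.4, 94.4 and 89.8. Of the 4 series the combination's alone fell at both steps, and the anti-LAG3 series was low at 1 µg/ml only. At the 2 lower doses the 8 libraries lay between 73.4 and 97.7 CPM.

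At 1 µg/ml the combination held 0.669 times the isotype level (95% counting interval 0.629 to 0.711), from 1535 and 3217 counts, and 42 of the 46 tested genes were lower. Anti-LAG3 held 0.706 times that level (0.668 to 0.747) with 41 lower, and anti-PD1 0.824 times (0.780 to 0.871) with 32 lower. At 0.1 µg/ml the ratios to isotype were 0.777 for the combination (0.733 to 0.825), 1.04 for anti-LAG3 (0.978 to 1.09) and 0.919 for anti-PD1 (0.867 to 0.974). At 0.01 µg/ml they were 1.16 (1.10 to 1.23), 1.05 (0.991 to 1.12) and 0.929 (0.872 to 0.990) for these arms. The intervals are exact (Clopper-Pearson) and cover counting error only.

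Within an arm, the log2 ratio of the summed level at 1 over 0.01 µg/ml was -0.62 in the combination (95% counting interval -0.71 to -0.52) and -0.40 with anti-LAG3 (-0.48 to -0.31). It was 0.0052 with anti-PD1 (-0.087 to 0.098) and 0.18 with isotype antibody (0.099 to 0.26). The isotype series, with no blocking antibody, was thus higher at 1 than at 0.01 µg/ml by more than counting error.

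**Figure D1:**
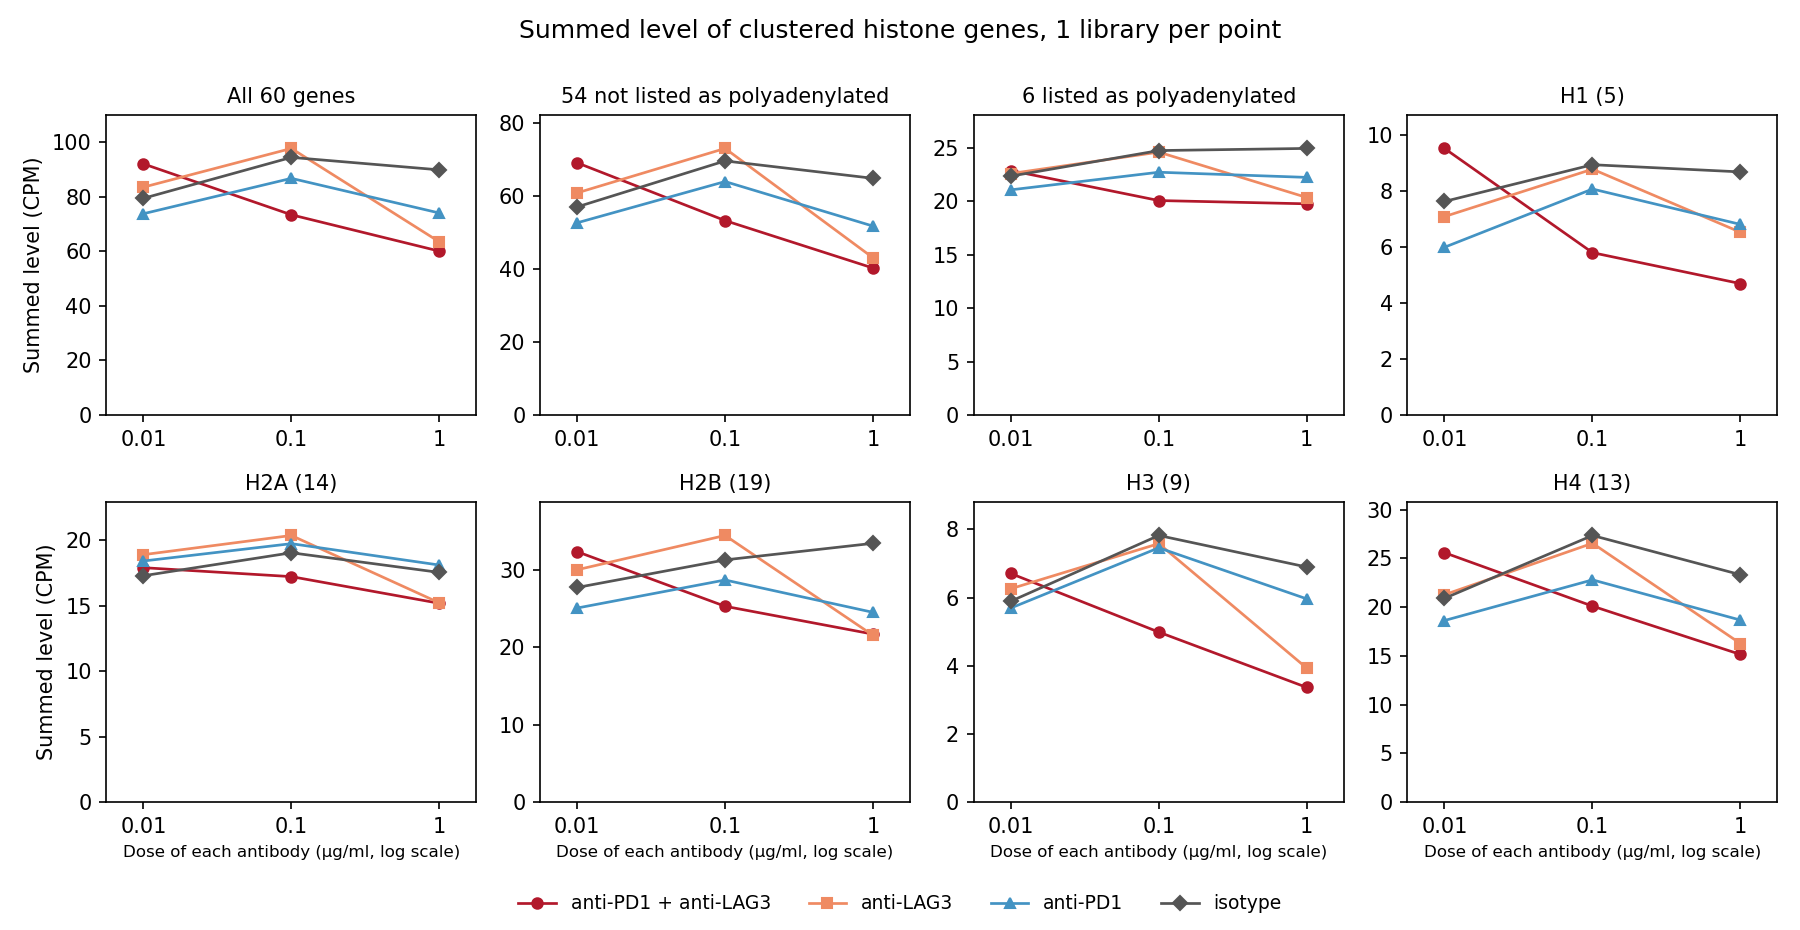
Summed level of clustered histone genes in CPM (vertical axis, from 0) against the dose of each antibody in µg/ml (horizontal axis, log scale), for all 60 genes, by listing as polyadenylated and by histone class. Each point is 1 library and each line an arm; the combination falls to 60.0 CPM at 1 µg/ml, against 89.8 CPM with isotype antibody, while the 6 genes listed as polyadenylated stay between 19.8 and 24.9 CPM.

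All 5 classes were lower in the combination than with isotype antibody at 1 µg/ml, by unequal amounts. The 9 H3 genes summed to 6.71, 4.99 and 3.36 CPM in the combination, and to 5.89, 7.82 and 6.90 with isotype antibody. The 5 H1 genes summed to 9.52, 5.80 and 4.69 CPM in the combination, and to 7.63, 8.94 and 8.68 with isotype antibody. The ratios at 1 µg/ml were 0.488 for H3 (0.377 to 0.626) and 0.541 for H1 (0.434 to 0.669).

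For the 13 H4 genes the sums were 25.6, 20.1 and 15.1 CPM in the combination, and 20.9, 27.3 and 23.3 with isotype antibody. The 19 H2B genes held 32.3, 25.3 and 21.7 CPM in the combination, and 27.7, 31.3 and 33.4 with isotype antibody. The 14 H2A genes held 17.9, 17.2 and 15.2 CPM in the combination, and 17.3, 19.0 and 17.5 with isotype antibody. Their ratios at 1 µg/ml were 0.649 for H4 (0.574 to 0.733), 0.649 for H2B (0.586 to 0.718) and 0.866 for H2A (0.761 to 0.984).

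The 6 genes listed as also making polyadenylated mRNA varied less in sum than the rest, a difference that was not tested. HIST1H1C, HIST1H2AC, HIST1H2BD, HIST1H2BK, HIST2H2BE and HIST4H4 together held 22.9, 20.1 and 19.8 CPM in the combination, and 22.3, 24.7 and 24.9 with isotype antibody. The other 54 held 69.2, 53.3 and 40.3 CPM in the combination, and 57.1, 69.7 and 64.9 with isotype antibody. The list was set down by gene name and does not follow the annotation. HIST1H1C, HIST1H2BK and HIST4H4 had no annotated transcript with a polyadenylation signal (AATAAA or ATTAAA) in its last 50 bases. HIST1H4H, HIST1H4E and HIST3H2A, among others of the 54, had at least 1, so the 54 may include genes that also make polyadenylated mRNA. At 1 µg/ml the ratio of combination to isotype was 0.792 for the 6 (0.709 to 0.885) and 0.621 for the 54 (0.576 to 0.669).

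With anti-LAG3 at 1 µg/ml that ratio was 0.816 for the 6 (0.736 to 0.904) and 0.664 for the 54 (0.621 to 0.710). HIST1H2BK, the largest part of the sum of the 6, stayed within 8.11 to 10.4 CPM over the 12 libraries. HIST1H2AC stayed within 3.09 to 4.05 and HIST1H1C within 2.66 to 4.02. HIST2H2BE ranged from 1.29 to 2.29 CPM and HIST4H4 from 1.20 to 2.53. HIST1H2BD ranged from 2.46 to 4.63 CPM, and its lowest values were those of the combination (2.46) and anti-LAG3 (2.5) at 1 µg/ml.

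The dose slope was tested next, as the change in log2 level per 10-fold dose in an antibody arm minus that of the isotype series (edgeR's quasi-likelihood test, Benjamini-Hochberg adjustment over 15535 genes, called at an adjusted p under 0.05). In the combination 3 of the 46 genes fell and 0 rose, where 2.8% of all genes tested were called down and 1.83% up. The 3 were HIST1H4C, HIST1H1E and HIST1H2BO. Below 0 were 42 of the 46, with a median of -0.57, beside a median of 0.0061 over all genes tested, of which 7552 lay below 0. At an unadjusted p under 0.05, 12 of the 46 were down and 0 up, beside 1453 down and 1313 up of all 15535 genes. The median was -0.92 without the isotype library at 1 µg/ml and -0.35 without that at 0.01 µg/ml (34 below 0), and it stayed below 0 as each of the 12 libraries was left out.

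HIST1H4C (chromosome 6, 26103876 to 26104310, plus strand, GRCh38) encodes histone H4. It held 10.2, 7.87 and 6.57 CPM in the combination, and 7.30, 8.42 and 9.69 with isotype antibody. Anti-LAG3 gave 8.60, 9.02 and 7.13 CPM and anti-PD1 7.41, 6.56 and 6.81. The combination was above isotype at 0.01 µg/ml and below it at the higher doses, so the levels of these arms overlapped. The slope difference was -0.52 ± 0.12 (SE, edgeR adjusted p = 0.00999), from slopes of -0.32 in the combination and 0.20 in the isotype series.

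HIST1H1E (chromosome 6, 26156354 to 26157107, plus strand), a linker histone gene, crossed in the same way. It held 3.23, 1.40 and 0.939 CPM in the combination, and 2.17, 2.5 and 3.04 with isotype antibody. Anti-LAG3 gave 1.96, 2.51 and 1.24 CPM and anti-PD1 1.54, 3.02 and 1.62, neither in the order of the doses. The slope difference of the combination was -1.18 ± 0.31 (SE, edgeR adjusted p = 0.0370).

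HIST1H2BO (chromosome 6, 27893463 to 27893843, plus strand), an H2B gene, held 1.32, 0.702 and 0.156 CPM in the combination, from 38, 19 and 4 counts. With isotype antibody it held 0.759, 1.08 and 0.921 CPM, from 21, 29 and 33 counts. The slope difference was -1.45 ± 0.43 (SE, edgeR adjusted p = 0.0496), at the edge of the threshold.

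These calls depend on single libraries. Without the combination library at 1 µg/ml, or the isotype library at 1 or 0.01 µg/ml, 0 of the genes were called. Without the combination library at 0.01 µg/ml 1 was, and that gene was none of these 3. Without the isotype library at 0.1 µg/ml 1 of the 3 was called, and without the combination library at 0.1 µg/ml 2 were. The count over all genes moved too: 719 were called with all libraries, 239 and 101 without the combination library at 1 and at 0.01 µg/ml, and 34 and 302 without the isotype library at those doses. DESeq2 called 0 of the 20 members to which it gave an adjusted p, where 286 were called over all genes. Its adjusted p was 0.170 for HIST1H4C and 0.195 for HIST1H1E, with none given for HIST1H2BO.

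**Figure D2:**
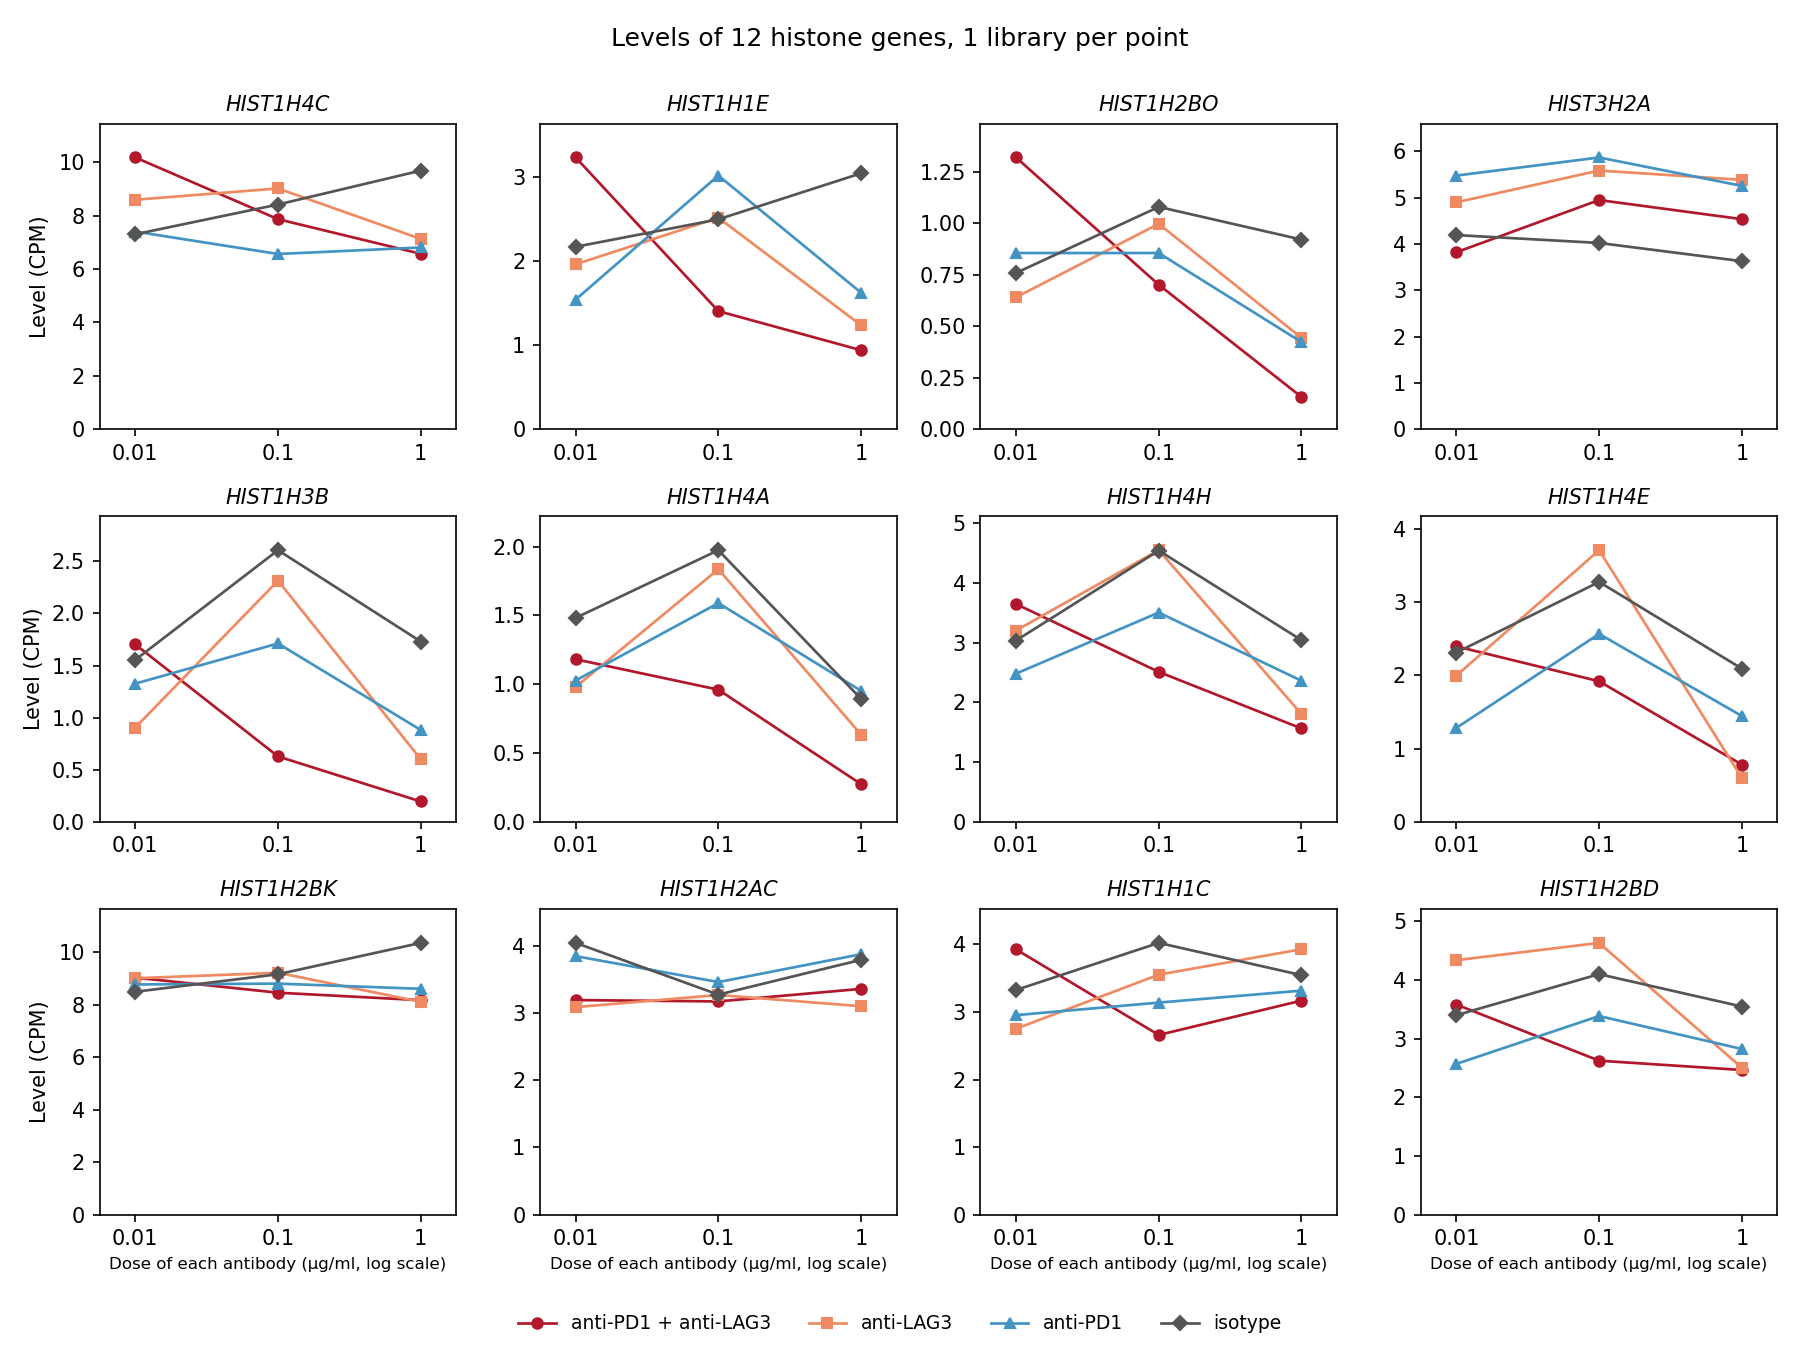
Level of 12 histone genes in CPM (vertical axis, from 0) against the dose of each antibody in µg/ml (horizontal axis, log scale). Each point is 1 library and each line an arm; HIST1H4C, HIST1H1E and HIST1H2BO fall with dose in the combination and not with isotype antibody, and HIST3H2A lies higher with anti-LAG3 and anti-PD1 than with isotype antibody at every dose.

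The largest falls in slope were not called with the filter on low counts and all 12 libraries. HIST1H3A, an H3 gene, had a slope difference of -1.81 ± 0.58 (SE, edgeR adjusted p = 0.0719) and HIST1H3B, also an H3 gene, of -1.56 ± 0.73 (SE, edgeR adjusted p = 0.331). HIST1H2BM, an H2B gene, had -1.54 ± 0.69 (SE, edgeR adjusted p = 0.269). With no filter on low counts HIST1H3B (-1.57, edgeR adjusted p = 0.00106) and HIST1H2BM (-1.56, edgeR adjusted p = 0.0300) were called. HIST1H3B was also called without any 1 of the 3 anti-LAG3 libraries (edgeR adjusted p = 0.0147 to 0.0153). HIST1H3B held 1.70, 0.628 and 0.196 CPM in the combination (49, 17 and 5 counts), and 1.55, 2.61 and 1.73 with isotype antibody (43, 70 and 62 counts). Highest were HIST1H3J at 0.69 (edgeR adjusted p = 0.348), HIST1H2AJ at 0.55 (edgeR adjusted p = 0.556) and HIST3H2A at 0.23 (edgeR adjusted p = 0.497). HIST1H3J and HIST1H2AJ share sequence with other genes: 59.1% and 16.3% of their 50-base stretches are their own.

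By class, the median slope difference of the combination was -0.89 over 4 H1 genes, -0.71 over 8 H3, -0.59 over 9 H4, -0.54 over 15 H2B and -0.22 over 10 H2A genes. Below 0 lay all 4 H1, all 15 H2B and all 9 H4 genes tested, 7 of 8 H3 genes and 7 of 10 H2A genes. The 6 genes listed as also polyadenylated had a median of -0.21 and the other 40 of -0.62. By annotated end, the 17 tested genes with a transcript running more than 100 bases past the stem-loop had a median of -0.37. It was -0.65 over the 5 whose transcripts end within 100 bases of it and -0.65 over the 24 with no stem-loop annotated, which hold the 3 called genes. The group of 24 rests on where annotated transcripts end, and its genes may still have a stem-loop. No difference between these groups was tested.

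With anti-LAG3, 0 of the 46 slopes passed, where 0.0579% of all genes were called up and 0.0129% down. At an unadjusted p under 0.05, 6 were down and 0 up, beside 609 down and 633 up of all 15535 genes, and DESeq2 also called 0. The median was -0.41, with 38 of 46 below 0. Lowest were HIST1H3A (-1.24 ± 0.49 SE), HIST2H3D, an H3 gene (-1.19 ± 0.69 SE), and HIST1H4L, an H4 gene (-1.15 ± 0.71 SE), at mean levels of 0.317 to 0.357 CPM. Highest were HIST1H4I at 0.33, HIST1H3J at 0.33 and HIST1H1C at 0.21.

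HIST1H4I, whose stem-loop is shown above, held 2.26, 3.59 and 3.83 CPM with anti-LAG3, and 3.65, 4.17 and 3.80 with isotype antibody. HIST1H4E and HIST1H4H were highest at the middle dose: HIST1H4E held 2.00, 3.71 and 0.602 CPM with anti-LAG3, and 2.31, 3.28 and 2.09 with isotype antibody. HIST1H4H held 3.20, 4.55 and 1.81 CPM with anti-LAG3, and 3.04, 4.54 and 3.04 with isotype antibody. Without the anti-LAG3 library at 1 µg/ml the median slope difference of anti-LAG3 was 0.27, without that at 0.01 µg/ml -1.20 and without the isotype library at 1 µg/ml -0.69, so its direction rests on 1 library. It was -0.21 without the isotype library at 0.01 µg/ml.

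With anti-PD1, 0 of the 46 slopes passed, where 0.0837% of all genes were called up and 0.18% down. At an unadjusted p under 0.05, 1 was down and 0 up, beside 936 down and 789 up of all 15535 genes, and DESeq2 gave no member an adjusted p. The median was -0.13, with 28 of 46 below 0. It was 0.25 without the anti-PD1 library at 1 µg/ml and 0.025 without the isotype library at 0.01 µg/ml, -0.34 without the anti-PD1 library at 0.01 µg/ml and -0.26 without the isotype library at 1 µg/ml. It was -0.063 with no filter on low counts. HIST1H2BM lay lowest at -0.91 ± 0.67 (SE), then HIST3H2BB, an H2B gene, at -0.85 ± 0.65 (SE) and HIST1H2AH, an H2A gene, at -0.77 ± 0.51 (SE). HIST1H3J, HIST1H4F (H4) and HIST1H2BG (H2B) lay highest, at 0.64, 0.53 and 0.45.

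The 3 comparisons share the isotype series, so their values are set side by side only. Within each arm alone, the median slope of the 46 genes was -0.40 in the combination (40 below 0), -0.30 with anti-LAG3 (41 below 0), -0.023 with anti-PD1 (26 below 0) and 0.12 with isotype antibody (13 below 0).

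**Figure D3:**
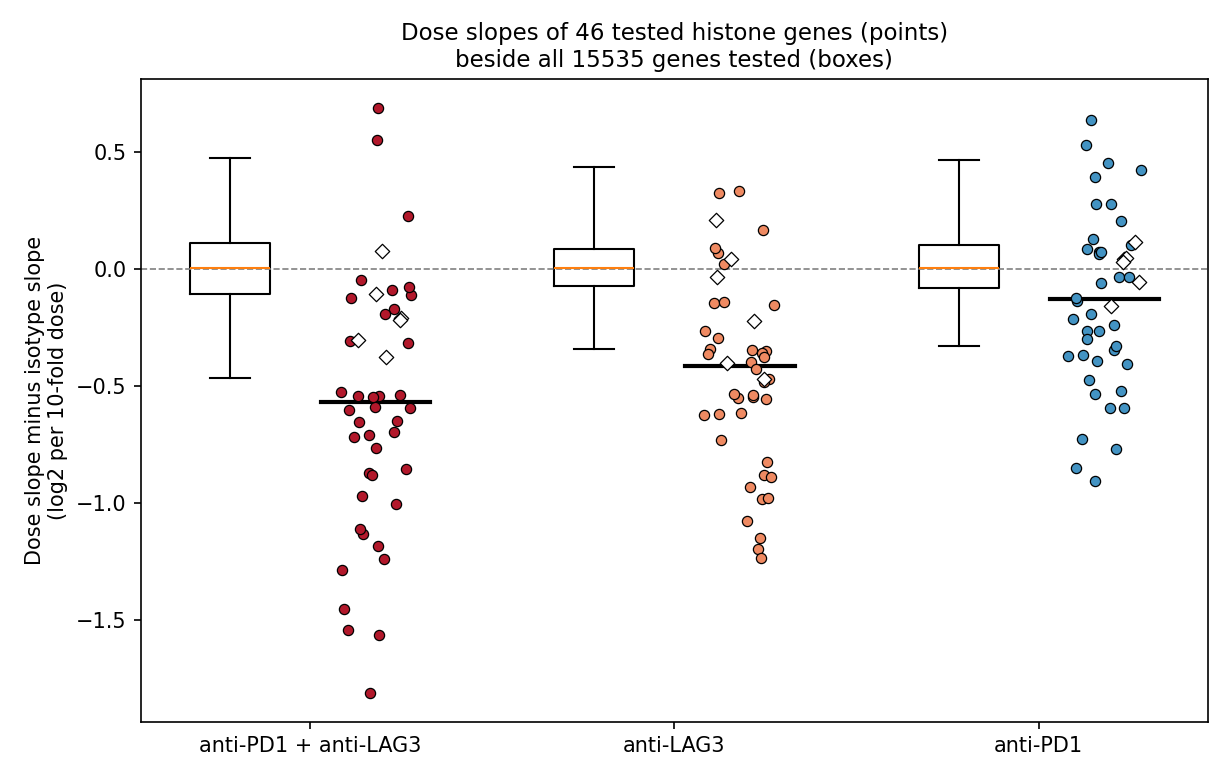
Dose slope minus the isotype slope, in log2 per 10-fold dose (vertical axis), for the 46 tested histone genes (points, with a bar at their median) in the 3 antibody arms; open diamonds are the 6 genes listed as also polyadenylated. Boxes show all 15535 genes tested (median line, quartiles, whiskers at the 5th and 95th percentiles); the medians of the histone genes are -0.57 in the combination, -0.41 with anti-LAG3 and -0.13 with anti-PD1.

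The arm means, over the 3 doses with dose as a factor, gave 1 called gene, HIST3H2A (chromosome 1, 228456979 to 228457873, minus strand), the H2A gene of the third cluster. It was higher with anti-LAG3 than with isotype antibody, the 1 gene of 46 called up with 0 down, where 4.88% of all genes were called up and 5.16% down. It was also higher with anti-PD1, again 1 up and 0 down, where 2.09% of all genes were called up and 1.73% down. HIST3H2A held 4.90, 5.59 and 5.39 CPM with anti-LAG3 and 5.48, 5.87 and 5.26 with anti-PD1, and 4.19, 4.02 and 3.63 with isotype antibody. Neither antibody arm overlapped the isotype libraries. The difference was 0.43 ± 0.13 log2 for anti-LAG3 (SE, edgeR adjusted p = 0.0365) and 0.49 ± 0.13 for anti-PD1 (SE, edgeR adjusted p = 0.0358).

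In the combination HIST3H2A held 3.82, 4.95 and 4.54 CPM, with a difference to isotype of 0.17 ± 0.13 (SE, edgeR adjusted p = 0.925). Combination minus anti-LAG3 was -0.26 ± 0.13 (SE, edgeR adjusted p = 0.243) and minus anti-PD1 -0.32 ± 0.13 (SE, edgeR adjusted p = 0.254). With the difference of T and B line markers as a covariate, 1 gene of all was called in the anti-LAG3 arm mean, against 1560 without it. For anti-PD1 it was 336 against 594. Nearly every call with anti-LAG3 was thus lost there, so the loss of 1 gene's call says little about that gene. The calls of HIST3H2A were lost with this covariate (edgeR adjusted p = 0.778 for anti-LAG3 and 0.135 for anti-PD1) and with a length correction (0.0763 and 0.0543). They were also lost without any 1 of the 3 anti-LAG3 libraries, or the isotype library at 1 or 0.1 µg/ml, for anti-LAG3 (differences of 0.37 to 0.52 as any of the 12 libraries was left out). For anti-PD1 they were lost without any 1 of the 3 anti-PD1 libraries, the isotype library at 1 or 0.1 µg/ml, or the combination library at 0.1 µg/ml (0.44 to 0.59).

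The medians of the 46 arm means were -0.18 for anti-LAG3 (37 below 0) and -0.26 for anti-PD1 (38 below 0). The median of anti-LAG3 was 0.030 without the isotype library at 1 µg/ml, -0.023 without the anti-LAG3 library at 1 µg/ml (24 below 0) and 0.059 with the T minus B covariate. That of anti-PD1 was -0.056 without the isotype library at 1 µg/ml (27 below 0) and -0.14 without the anti-PD1 library at 0.01 µg/ml. Without the isotype library at 0.01 µg/ml the medians were -0.37 for anti-LAG3 and -0.42 for anti-PD1, and without the anti-LAG3 library at 0.1 µg/ml that of anti-LAG3 was -0.33. Lowest with anti-LAG3 were HIST1H3B (-0.73 ± 0.48 SE), HIST1H4L (-0.68 ± 0.61 SE) and HIST1H1E (-0.51 ± 0.43 SE), and highest after HIST3H2A were HIST1H2BJ (H2B) at 0.38 and HIST3H2BB at 0.37. Lowest with anti-PD1 were HIST3H2BB (-0.81 ± 0.53 SE), HIST1H2BI, an H2B gene (-0.74 ± 0.35 SE), and HIST1H2BM (-0.63 ± 0.48 SE). Highest there after HIST3H2A were HIST1H3H (H3) at 0.19 and HIST1H3J at 0.18.

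In the combination minus isotype, 0 of the 46 arm means passed, where 0.00644% of all genes were called up and 0% down. At an unadjusted p under 0.05, 4 were down and 0 up, beside 455 down and 582 up of all 15535 genes, and DESeq2 called 0. The median was -0.31, with 41 of 46 below 0. It was -0.10 without the isotype library at 1 µg/ml, -0.46 without the combination library at 0.01 µg/ml and -0.16 with the T minus B covariate. HIST1H3B lay lowest at -1.25 ± 0.52 (SE, edgeR adjusted p = 0.714), then HIST1H3F, an H3 gene, at -0.89 ± 0.49 (SE) and HIST1H4A, an H4 gene, at -0.85 ± 0.29 (SE). With no filter on low counts HIST1H3B was called (-1.25, edgeR adjusted p = 0.00303). HIST1H3I (H3), HIST3H2A and HIST3H2BB were highest, at 0.24, 0.17 and 0.13.

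HIST1H4A held 1.18, 0.961 and 0.274 CPM in the combination, and 1.48, 1.97 and 0.894 with isotype antibody, so each combination library was below the isotype library of its dose. Without the combination library at 0.01 µg/ml, 4 of the genes were called, among 271 over all genes against 1 with all libraries, HIST1H3B among them at -2.41 (edgeR adjusted p = 0.000216) and HIST1H4A at -1.31 (edgeR adjusted p = 0.0288).

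No gene of the 46 was called between the combination and either antibody alone. Minus anti-LAG3, 0 passed, where 2.61% of all genes were called up and 3.14% down, and minus anti-PD1, 0 passed, where 0.116% were called up and 0.238% down. At an unadjusted p under 0.05 each had 1 down and 0 up. Of all 15535 genes, 1660 were then down and 1678 up minus anti-LAG3, and 1125 down and 1051 up minus anti-PD1. DESeq2 called 0 of the 3 members to which it gave an adjusted p minus anti-LAG3, and gave none to any minus anti-PD1. The medians were -0.15 minus anti-LAG3 (32 below 0) and -0.11 minus anti-PD1 (30 below 0). Without the anti-LAG3 library at 0.1 µg/ml the first was 0.043 without that at 1 µg/ml -0.26, and without the combination library at 1 and at 0.1 µg/ml -0.038 and -0.028. It was -0.093 with no filter and -0.077 by DESeq2. The second was 0.073 without the combination library at 1 µg/ml, 0.041 without that at 0.1 µg/ml and -0.19 without the anti-PD1 library at 0.01 µg/ml. It was -0.038 and -0.025 without the anti-PD1 library at 1 and at 0.1 µg/ml. Without the combination library at 0.01 µg/ml they were -0.43 and -0.30.

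Lowest minus anti-LAG3 were HIST1H3F (-0.93 ± 0.49 SE), HIST1H1B, a linker histone gene (-0.72 ± 0.35 SE), and HIST1H3A (-0.62 ± 0.54 SE), and highest were HIST1H3I at 0.45, HIST2H2AC (H2A) at 0.37 and HIST1H4I at 0.25. Lowest minus anti-PD1 were HIST1H3B (-0.62 ± 0.56 SE), HIST1H4A (-0.59 ± 0.30 SE) and HIST1H1D, a linker histone gene (-0.55 ± 0.34 SE). Highest there were HIST3H2BB at 0.94, HIST1H2BF (H2B) at 0.61 and HIST1H2BI at 0.31. Without the combination library at 0.01 µg/ml, 3 genes were called minus anti-LAG3 and 1 minus anti-PD1, among 1189 and 193 over all genes (893 and 55 with all libraries).

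At matched doses the summed level of the combination was 1.10 times that of anti-LAG3 at 0.01 µg/ml (1.04 to 1.17), 0.751 times at 0.1 µg/ml (0.708 to 0.797) and 0.947 times at 1 µg/ml (0.885 to 1.01). Against anti-PD1 it was 1.25 times (1.17 to 1.33), 0.846 times (0.796 to 0.900) and 0.811 times (0.759 to 0.867) at these doses. At the highest dose the combination and anti-LAG3 were thus not told apart by counting error.

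The authors' deposited tables compare each antibody library with the 3 isotype libraries together. In the authors' deposited table for the combination at 1 µg/ml, 39 of the 60 genes have an adjusted p and 1 is called, HIST1H3B with a log2 fold change of -3.32 (SE 0.80, adjusted p = 0.00278), where 1.73% of all genes with an adjusted p are called. That authors' deposited table has a median of -0.77 over the 41 genes of the family it lists, 39 of them below 0. For HIST1H4A the authors' deposited table gives -2.39 at this dose (adjusted p = 0.0971).

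At 0.1 µg/ml of the combination the authors' deposited table calls 0 of 38, where 0.199% of all genes are called, and at 0.01 µg/ml 0 of 46, where 0% are. The authors' deposited tables for anti-PD1 call 0 of 21 at 1 µg/ml, where 0.443% of all genes are called, and 0 of 44 at 0.1 µg/ml, where 0% are. In the other 4 of the authors' deposited tables no gene of the family has an adjusted p. For anti-LAG3 at 1 µg/ml the authors' deposited table has a median of -0.80 over the 43 genes it lists, 40 of them below 0.

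Some RNAs that carry no poly(A) tail were low in the same libraries and others were not. RMRP, the RNA of the ribonuclease MRP, held 6.74, 6.87 and 2.11 CPM in the combination, 7.47, 9.14 and 2.34 with anti-LAG3, 3.94, 6.16 and 3.99 with anti-PD1, and 7.30, 9.57 and 6.67 with isotype antibody. It was lowest in the 2 libraries in which the histone genes were lowest, and its slope difference in the combination was -0.62 ± 0.65 (SE, edgeR adjusted p = 0.708). SCARNA2, a small Cajal body RNA picked after its values were seen, held 0.743 CPM in the combination and 0.792 with anti-LAG3 at 1 µg/ml, and 1.20 with isotype antibody. SNORD17, a small nucleolar RNA also picked after its values were seen, held 1.84, 2.40 and 3.09 CPM in the combination, where 1 µg/ml gave the highest value of the 12 libraries, and 2.78, 2.12 and 2.29 with isotype antibody.

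Of 36 such structural RNAs listed, 7 had no count in any library, RN7SK among them, and 10 were tested. In the combination 0 of the 10 passed in slope (median 0.12, 7 above 0 and 3 below, 1 up and 0 down at an unadjusted p under 0.05) or in arm mean (median -0.46, 0 up and 3 down). Of all 15535 genes, 1313 were up and 1453 down at that cut-off in slope, and 582 up and 455 down in arm mean. Most of their sum is RN7SL1 and RN7SL2, RNAs of the signal recognition particle. The whole list summed to 185, 260 and 218 CPM in the combination, 287, 276 and 273 with anti-LAG3, 267, 278 and 235 with anti-PD1, and 300.2, 321 and 171 with isotype antibody. This sum was lowest with isotype antibody at 1 µg/ml, not in the libraries in which the histone genes were lowest.

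Without RN7SL1 and RN7SL2, a split chosen after the values were seen, the other 34 summed to 18.1, 18.4 and 11.1 CPM in the combination, 20.2, 21.5 and 10.6 with anti-LAG3, 14.3, 18.9 and 14.0 with anti-PD1, and 22.1, 25.4 and 16.9 with isotype antibody. These, too, were lowest in the combination and with anti-LAG3 at 1 µg/ml. The part of RNA without a poly(A) tail, and of how much of it each library caught, in the histone values was not tested.

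**Figure D4:**
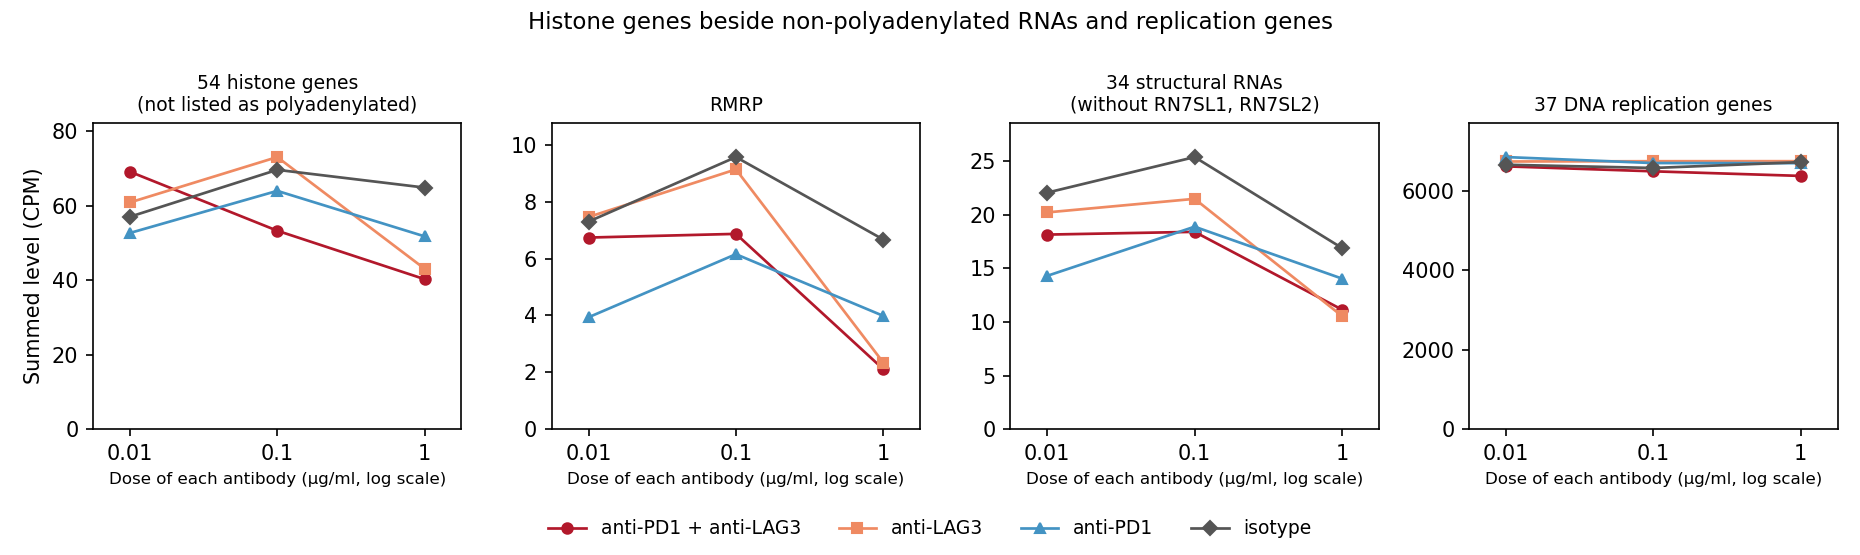
Summed level in CPM (vertical axes, from 0, each on its own scale) against the dose of each antibody in µg/ml (horizontal axis, log scale) for 54 histone genes, RMRP, 34 structural RNAs without a poly(A) tail and 37 DNA replication genes. Each point is 1 library and each line an arm. The first 3 panels are lowest with the combination and anti-LAG3 at 1 µg/ml. The replication genes run from 6379 CPM, in the combination at 1 µg/ml, to 6854 CPM.

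Polyadenylated mRNAs of DNA replication and mitosis are set beside the histone genes, and no difference from them was tested. The 37 replication and S phase genes summed to 6620, 6495 and 6379 CPM in the combination, and to 6660.5, 6579 and 6725 with isotype antibody. In the combination's slope 0 of the 37 passed (median -0.031, 8 down and 0 up at an unadjusted p under 0.05). Of all 15535 genes, 1453 were down and 1313 up in this slope at that cut-off, and 7552 lay below 0. PCNA, the clamp of the replicating polymerase, held 568, 558 and 568 CPM in the combination, and 549, 550.2 and 566 with isotype antibody. RRM2, a subunit of ribonucleotide reductase, held 351, 310.2 and 299 CPM in the combination, and 336, 334 and 354 with isotype antibody, with a slope difference of -0.15 ± 0.045 (SE, edgeR adjusted p = 0.0520). Of 20 mitosis genes 0 passed (median -0.092, 17 below 0, 8 down and 0 up at an unadjusted p under 0.05). They summed to 3773, 3624 and 3470.5 CPM in the combination, and to 3736, 3695 and 3704 with isotype antibody.

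In arm means some of these genes were called. With anti-LAG3, 2 of the 37 replication genes rose and 2 fell (median 0.0033), and 1 of the 20 mitosis genes rose and 3 fell (median 0.0068). Of all genes 4.88% were called up and 5.16% down there. CLSPN, for the checkpoint mediator claspin, fell by 0.33 ± 0.060 with anti-LAG3 (SE, edgeR adjusted p = 0.00200). The mitotic genes CENPE and CENPF, for kinetochore proteins, fell by 0.44 ± 0.066 and fell by 0.50 ± 0.099 (SE, edgeR adjusted p = 0.000653 and 0.0171). Among the rises there were BIRC5 (survivin), a mitosis gene, by 0.19 ± 0.043, and TK1, a thymidine kinase, by 0.22 ± 0.055 (SE, edgeR adjusted p = 0.00704 and 0.0123). With anti-PD1, 2 replication genes rose and 1 fell, and 1 mitosis gene rose and 1 fell, where 2.09% of all genes were called up and 1.73% down. With anti-PD1 TK1 rose by 0.24 ± 0.055 and CLSPN fell by 0.27 ± 0.060 (SE, edgeR adjusted p = 0.0203 and 0.0191). In combination minus anti-LAG3, 1 replication gene rose and 3 fell, where 2.61% of all genes were called up and 3.14% down. CLSPN rose, at 0.25 ± 0.061 (SE, edgeR adjusted p = 0.0195), and TYMS, for thymidylate synthase, was among those that fell, at -0.20 ± 0.042 (SE, edgeR adjusted p = 0.00854). Of the mitosis genes 2 rose, CENPE at 0.37 ± 0.066 and CENPF at 0.44 ± 0.099 (SE, edgeR adjusted p = 0.00479 and 0.0422). The 1 that fell was BIRC5, at -0.19 ± 0.043 (SE, edgeR adjusted p = 0.0126).

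The machinery of histone mRNA showed no call in the combination minus isotype. Of 22 genes for histone gene transcription and 3′ end processing, 0 passed in slope (median -0.036, 1 up and 2 down at an unadjusted p under 0.05) or in arm mean (median -0.013, 0 up and 1 down). Of all 15535 genes, 1313 were up and 1453 down at that cut-off in slope, and 582 up and 455 down in arm mean. SLBP held 139, 129 and 126 CPM in the combination, and 131, 131 and 137 with isotype antibody, with a slope difference of -0.099 ± 0.046 (SE, edgeR adjusted p = 0.255).

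In the anti-LAG3 arm mean 3 of the 22 fell and 0 rose, where 5.16% of all genes were called down and 4.88% up. NPAT, the coactivator of histone genes, held 34.7, 35.4 and 35.5 CPM with anti-LAG3, and 39.8, 38.7 and 42.8 with isotype antibody, a difference of -0.20 ± 0.058 (SE, edgeR adjusted p = 0.0281). POU2F1, which binds the octamer motif, fell by 0.29 ± 0.055 (SE, edgeR adjusted p = 0.00264), and GON4L fell by 0.24 ± 0.067 (SE, edgeR adjusted p = 0.0262). In the anti-PD1 arm mean POU2F1 alone of the 22 passed, at -0.24 ± 0.055 (SE, edgeR adjusted p = 0.0199), where 1.73% of all genes were called down and 2.09% up. In combination minus anti-LAG3, NPAT was higher by 0.22 ± 0.058 (SE, edgeR adjusted p = 0.0321) and GON4L by 0.26 ± 0.067 (SE, edgeR adjusted p = 0.0264).

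Of 12 histone genes listed as replication-independent and polyadenylated, 10 were tested, and in the combination's slope 1 rose and 2 fell (median -0.037). Of all genes 1.83% were called up and 2.8% down in this slope. The list was set down by gene name, and neither trait was checked gene by gene, H2AFX included. H2AFZ, for the variant H2A.Z, held 532, 603 and 616 CPM in the combination, and 613, 595 and 535 with isotype antibody, a slope difference of 0.20 ± 0.045 (SE, edgeR adjusted p = 0.00766). H1FX, a linker histone, fell by 0.28 ± 0.044 (SE, edgeR adjusted p = 0.000299), and H2AFX, the variant marked at DNA breaks, fell by 0.19 ± 0.048 (SE, edgeR adjusted p = 0.0220). H3F3B, for the variant H3.3, held 377, 403 and 421 CPM in the combination, and 388, 394 and 358 with isotype antibody (slope difference 0.14 ± 0.045 SE, edgeR adjusted p = 0.0831). Of 21 histone chaperones 1 fell and 0 rose in this slope, DAXX at -0.17 ± 0.048 (SE, edgeR adjusted p = 0.0413). In arm means ATRX, a partner of DAXX, fell by 0.29 ± 0.046 with anti-LAG3 (SE, edgeR adjusted p = 0.000877) and fell by 0.22 ± 0.046 with anti-PD1 (SE, edgeR adjusted p = 0.0128).

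The balance of the 2 lines also differed between arms. All 24 Jurkat T markers and 25 Raji B markers had counts. The T markers summed to 1777, 1764 and 2065 CPM in the combination, 1818, 1837 and 1970.5 with anti-LAG3, 1701, 1769.5 and 1929 with anti-PD1, and 1613.5, 1623 and 1777 with isotype antibody. The B markers summed to 9457 to 10789 CPM. In the combination's slope 6 of the 23 T markers tested rose and 5 fell, where 1.83% of all genes were called up and 2.8% down. Of the 25 B markers 0 passed there (3 up and 5 down at an unadjusted p under 0.05, beside 1313 up and 1453 down of all 15535 genes). In arm means with anti-LAG3, 4 T markers rose and 0 fell, and 1 B marker rose and 4 fell, where 4.88% of all genes were called up and 5.16% down. In the combination's slope LCP2, an adaptor of T cell receptor signalling, rose by 0.88 ± 0.069 (SE, edgeR adjusted p = 8.63e-09), TRAC, the constant region of the receptor's alpha chain, by 0.58 ± 0.056 (3.25e-07) and CD6, a T cell surface protein, by 0.49 ± 0.069 (6.89e-05). Among the 5 that fell were CD3E, by 0.30 ± 0.051, and CD3G, by 0.28 ± 0.053 (SE, edgeR adjusted p = 0.000584 and 0.00202). The median slope difference of the 23 T markers was -0.065, with 13 below 0. EBF1, a B cell transcription factor, fell by 0.26 ± 0.059 in the anti-LAG3 arm mean (SE, edgeR adjusted p = 0.00848). In combination minus anti-LAG3, CIITA, the activator of MHC class II genes, was higher by 0.23 ± 0.048 and PAX5, a B cell transcription factor, by 0.21 ± 0.049 (SE, edgeR adjusted p = 0.00854 and 0.0154). With the T minus B difference as a covariate the slope calls of HIST1H4C and HIST1H1E remained and that of HIST1H2BO did not (-1.25, edgeR adjusted p = 0.155). With this covariate the median slope difference of the histone genes was -0.47 in the combination, -0.32 with anti-LAG3 and -0.077 with anti-PD1. The median arm mean against isotype antibody was -0.16 in the combination, 0.059 with anti-LAG3 and -0.21 with anti-PD1. The T minus B difference ran from -2.19 to -2.08 with anti-LAG3 and from -2.44 to -2.35 with isotype antibody. In that comparison the covariate could hardly be told from the arm. With it 1 gene of all was called in the anti-LAG3 arm mean, against 1560 without it. At most 1 of the anti-LAG3 arm mean calls given above was thus kept.

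The promoters share short motifs, and those of HIST1H1E and HIST1H2BO are shown because these genes fell with the dose of the combination. RefSeq promoters (GRCh38.p14, 250 bases before to 50 after the start) were found for 50 of the 60 genes. The CCAAT box (CCAAT) was in 42 of the 50 (84.0%), against 34.6% of all 35116 promoters in the table. The TATA box (TATAAA) was in 33 (66.0%, against 11.5% of all) and the octamer (ATTTGCAT) in 22 (44.0%, against 1.77% of all), each searched on both strands. The octamer was in 12 of 16 H2B and 10 of 12 H2A promoters, and in 0 of 4 H1, 0 of 7 H3 and 0 of 11 H4 promoters. CCAAT was in 3 of 11 H4 promoters and in every promoter of the other classes. The 250 bases before each start, on the plus strand, have these motifs on either strand in capitals, and lie at chr6:26156079-26156328 for HIST1H1E and chr6:27893175-27893424 for HIST1H2BO.
HIST1H1E: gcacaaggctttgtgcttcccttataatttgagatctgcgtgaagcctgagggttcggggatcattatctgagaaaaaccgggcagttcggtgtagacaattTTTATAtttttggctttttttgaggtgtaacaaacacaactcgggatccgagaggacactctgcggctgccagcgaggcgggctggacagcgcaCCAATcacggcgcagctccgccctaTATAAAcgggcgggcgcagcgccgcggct
HIST1H2BO: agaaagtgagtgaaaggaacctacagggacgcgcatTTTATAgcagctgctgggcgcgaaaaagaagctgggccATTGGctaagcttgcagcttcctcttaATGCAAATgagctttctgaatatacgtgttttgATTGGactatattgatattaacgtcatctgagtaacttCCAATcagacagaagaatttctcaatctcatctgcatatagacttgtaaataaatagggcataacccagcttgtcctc
The window of HIST1H2BO held all 3 motifs, TATAAA on the strand opposite to the gene only. That of HIST1H1E held CCAAT and TATAAA and not the octamer. No promoter was matched to HIST1H4C, the other gene called in that slope. A match describes letters and says nothing of the factor bound.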

How the data were processed

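RNA-seq was analysed for 12 libraries, grouped by the treatment label. The authors deposited raw read counts per gene symbol with a length in bases, per the file headers. The tools named per the submitters' processing notes are STAR 2.5.2b, Subread 1.5.2 with its featureCounts, Trimmomatic 0.36 and DESeq2, and the build is GRCh38. The sources used here give no annotation release, no strand setting and no rule for reads matching several genes. Of 35914 symbols found in GENCODE 29, 91.1% had the same length there. The deposited comparison tables hold, per the file headers, log2 fold changes with standard errors, p-values and adjusted p-values of 1 library against the 3 isotype libraries. Left out were 4 count columns that match no sample and 36 per-sample columns of those tables.

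Counts were tested in R 4.3.3 with edgeR 4.0.16 (robust quasi-likelihood F test) after filterByExpr (minimum count 10, 15535 genes kept) and TMM scaling (edgeR's trimmed mean of M values), which also gave the CPM values. Arm means came from arm plus dose as a factor (6 residual degrees of freedom), where the dose is the block. Dose slopes came from a slope on log10 dose per arm (4 residual degrees of freedom) minus that of isotype. Benjamini-Hochberg adjustment covered the whole table of tested genes, with a threshold of 0.05, and the 12 libraries shared 1 estimate of the spread. A value after ± is a standard error. A count of 0 allows up to 3 counts, 0.0838 to 0.128 CPM. Amplified reads are not independent molecules, so intervals cover counting error only. The code was tested on simulated data.

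Named are the 12 members of highest mean CPM, every called member, the 6 listed as also polyadenylated, the 3 largest rises and falls of each of 8 comparisons, and of the other lists the genes set down with them and those called (of a list with more than 3, the 3 of smallest p). HIST1H2AM, the symbols with no counts, those beside the count minimum, SCARNA2, SNORD17, RN7SL1, RN7SL2, CD3E and CD3G were singled out after values were seen. The members and gene lists were chosen with earlier results of these data known. Alternatives were DESeq2's size factors and Wald test (DESeq2 1.42.0, missing adjusted p-values kept missing), no filter, no dose block, the T minus B marker covariate, a length correction and leaving out each library.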

Additional observations from a re-analysis of the deposited data

Results flagged for a closer look

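The dose slopes of 3 histone genes differed between the combination and the isotype series by a test of that difference. HIST1H4C had a slope difference of -0.52 (log2 per 10-fold dose, edgeR adjusted p = 0.00999), HIST1H1E of -1.18 (edgeR adjusted p = 0.0370) and HIST1H2BO of -1.45 (edgeR adjusted p = 0.0496). As each of the 12 libraries was left out, HIST1H4C ran from -0.58 to -0.46 and was called in 8 of 12, HIST1H1E from -1.45 to -0.82 and in 6, and HIST1H2BO from -2.26 to -1.03 and in 7.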

How the results depend on the processing

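DESeq2's size factors left every count of called members as it was. In combination minus isotype, removing the filter gave 1 called arm mean and 5 called slopes, and DESeq2's Wald test gave 0 called slopes among the 20 members with an adjusted p. For anti-LAG3 the called arm mean went to 0 with the Wald test (3 members with an adjusted p), the T minus B covariate and the length correction, and for anti-PD1 to 0 with the T minus B covariate and the length correction. With the T minus B covariate the arm mean calls over all genes went from 1560 to 1 for anti-LAG3 and from 594 to 336 for anti-PD1. The Wald test gave no member an adjusted p in the arm mean of anti-PD1, in combination minus anti-PD1 or in the anti-PD1 slope, so it has no value there. Without the replicate block, which is the dose here, the called arm means were 0 for combination minus isotype, 1 for anti-LAG3, 1 for anti-PD1 and 0 for both comparisons of the combination with 1 antibody.

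Leaving out single libraries gave 0 to 4 called members for combination minus isotype, 0 to 2 for anti-LAG3, 0 to 1 for anti-PD1, 0 to 3 for combination minus anti-LAG3, 0 to 1 for combination minus anti-PD1, 0 to 4 for the combination's slope and 0 for both other slopes. Over all genes the calls then ran from 0 to 271 for combination minus isotype, 424 to 2044 for anti-LAG3, 0 to 1044 for anti-PD1, 47 to 1488 for combination minus anti-LAG3 and 0 to 353 for combination minus anti-PD1. For the slopes they ran from 34 to 955 in the combination, 1 to 24 with anti-LAG3 and 0 to 122 with anti-PD1. Without the 6 genes listed as also polyadenylated, the log2 ratio of the sum at 1 over 0.01 µg/ml was -0.78 in the combination and -0.50 with anti-LAG3.

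With the T minus B covariate 3 values turned round: HIST1H4L for anti-LAG3 was 1.23 in arm mean and 0.015 in slope, and HIST1H3J for anti-PD1 was -0.23 in arm mean. Genes whose sign turned as single libraries were left out are given by their range. Arm means ran from -0.15 to 0.58 for HIST1H3I and -0.35 to 0.51 for HIST3H2BB in combination minus isotype, from -0.022 to 0.77 for HIST3H2BB with anti-LAG3, and from -1.11 to 0.0082 for HIST1H2BM and -0.046 to 0.61 for HIST1H3J with anti-PD1. HIST1H2BI ran from -0.12 to 0.54 in combination minus anti-PD1. Slopes ran from -0.33 to 1.46 for HIST1H2AJ and -0.021 to 0.48 for HIST3H2A in the combination. With anti-LAG3 they ran from -3.20 to 0.26 for HIST2H3D, -0.51 to 1.10 for HIST1H3J and -0.024 to 0.43 for HIST1H1C. With anti-PD1 they ran from -2.07 to 0.058 for HIST1H2BM, -2.20 to 0.15 for HIST3H2BB, -0.45 to 1.88 for HIST1H4F and -0.056 to 1.02 for HIST1H2BG. None of these was called, and the cause was not tested. Counts of 4 to 38 in a library limit what single genes such as HIST1H2BO can show.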
